A study of Mus musculus with 21 samples.

Results

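The genes described here are 10 transcripts of the choroid plexus epithelium, Ttr, Folr1, Kl, Clic6, Kcnj13, Aqp1, Enpp2, Prlr, Sostdc1 and Otx2, chosen by symbol, and all 10 were found among the 24498 genes of the counts table. They were followed in RNA sequencing of hippocampus from male mice of 8 weeks injected intraperitoneally with ethanol (2 g per kg, given in a 20% solution). The knockdown arm carries an AAV2/9 vector, U6.shACSS2.CMV.EGFP, which drives a short hairpin RNA against Acss2 from the U6 promoter, with GFP from the CMV promoter. The sample protocol places it in the dorsal hippocampus, while the design text of the series can be read as a systemic injection, and no vector is described for the control arm. The groups with over 1000000 gene reads per library were dorsal control (n = 3), dorsal knockdown (n = 4), ventral control (n = 4), ventral knockdown (n = 3, numbered 2 to 4 in the labels) and 1 knockdown library of the total hippocampus. Separate animals are not stated for the libraries of a group, and all p-values therefore rest on the spread from library to library, which may be technical.

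The choroid plexus is a sheet of epithelium over a vascular core that hangs into the brain ventricles and secretes cerebrospinal fluid. Its cells are tied together by tight junctions, carry water channels, ion transporters and vitamin carriers, and release transthyretin, the product of Ttr, in large amounts. In the lateral ventricle the plexus lies against the fimbria, along the hippocampus, so the listed genes mark a tissue next to the dissected one. They are described here as transcripts that can enter a hippocampal library with such tissue. Whether plexus tissue was in a sample was not tested other than by its transcripts, and in bulk RNA more cells of a type and more RNA per cell cannot be told apart.

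The 15 libraries held 2819837 to 13240179 gene reads, and 57.4% to 81.0% of uniquely aligned reads fell in genes. The remaining 6 libraries, 4 of them untreated and 2 after ethanol, held 4279 to 221847 gene reads and entered no comparison. Levels are gene counts scaled to a total of 1000000 gene reads (CPM). The targeted gene Acss2 was at 42.2, 57.1 and 56.9 CPM in the dorsal controls and at 36.0, 48.3, 18.3 and 19.4 CPM in the dorsal knockdown libraries. In the ventral controls it was at 55.8, 60.5, 45.4 and 48.4 CPM, and in ventral knockdown 2, 3 and 4 at 30.4, 68.1 and 33.2 CPM. The library labelled ventral knockdown 3 was therefore above all 4 ventral controls, against its label.

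As background, the 250 bases before the start of 3 of the 10 genes are shown. These are a water channel gene, a potassium channel gene and a regulator of epithelial identity. A part of these sequences in the levels described below was not tested. The sequences come from RefSeq on GRCm38.p6, in which 5 of the 10 genes had entries, with 10 start sites. Capitals mark the sequence TATAAA, that of a TATA box only where it lies close before the start. The windows run 5′ to 3′ on the gene's strand up to the base before the start.
Aqp1, chr6:55336049-55336298, plus strand: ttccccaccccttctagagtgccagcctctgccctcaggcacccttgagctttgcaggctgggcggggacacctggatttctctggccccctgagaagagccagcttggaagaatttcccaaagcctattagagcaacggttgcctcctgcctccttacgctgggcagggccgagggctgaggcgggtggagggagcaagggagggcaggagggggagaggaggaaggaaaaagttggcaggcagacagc
Kcnj13, chr1:87394730-87394979, minus strand: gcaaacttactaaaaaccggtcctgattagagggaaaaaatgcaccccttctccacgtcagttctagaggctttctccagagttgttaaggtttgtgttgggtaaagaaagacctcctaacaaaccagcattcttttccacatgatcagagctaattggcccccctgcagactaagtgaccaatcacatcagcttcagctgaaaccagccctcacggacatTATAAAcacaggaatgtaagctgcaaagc
Otx2, chr14:48667645-48667894, minus strand: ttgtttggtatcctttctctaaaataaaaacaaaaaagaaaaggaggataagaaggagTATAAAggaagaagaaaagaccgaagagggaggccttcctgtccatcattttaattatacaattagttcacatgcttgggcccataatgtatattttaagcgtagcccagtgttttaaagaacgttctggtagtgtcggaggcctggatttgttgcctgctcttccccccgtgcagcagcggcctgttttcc
On either strand, TATAAA was found before 2 of the 10 start sites, at position -29 of Kcnj13 and -192 of the Otx2 start shown, where -1 is the base before the start, and in 12.4% of all 32851 promoter windows. TAATCC, the sequence that the OTX2 homeodomain is known to recognise, was found before 1 of the 10 start sites, another start of Otx2 itself, and in 6.25% of all windows. In the 250 bases shown for Aqp1 neither motif was present.

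Ttr, on chromosome 18 from 20665280 to 20674321 of mm10, encodes the carrier of thyroxine in cerebrospinal fluid and reached the highest level of the 10 genes in ventral control 4. Ttr was at 90.4, 334 and 26.4 CPM in dorsal control 1 to 3, at 35.2, 235, 238 and 115 CPM in dorsal knockdown 1 to 4, at 17.9, 53.9, 535 and 14544 CPM in ventral control 1 to 4, at 30, 29.3 and 27.6 CPM in ventral knockdown 2 to 4, and at 63.8 CPM in the total-hippocampus library. Ventral control 4 stood far above the rest, with 131740 Ttr reads, or 1.45% of its gene reads (95% Clopper-Pearson interval 1.45% to 1.46%). The next library, ventral control 3, was 27.2-fold lower, and the median of the other 14 libraries was 247-fold lower. Below those libraries the groups overlapped, except that the 3 ventral knockdown libraries, with a mean of 29.0 ± 1.20 CPM (SD, n = 3), lay under all 4 dorsal knockdown libraries. The ventral control mean of 3788 ± 7175 CPM (SD, n = 4) became 202 ± 289 CPM (n = 3) without ventral control 4.

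Transport genes followed the same library. Aqp1 was at 1.42, 3.24 and 0.302 CPM in dorsal control 1 to 3, at 0.694, 1.38, 2.88 and 2.02 CPM in dorsal knockdown 1 to 4, at 0.201, 1.14, 2.97 and 91.4 CPM in ventral control 1 to 4, at 0.908, 0.445 and 0.658 CPM in ventral knockdown 2 to 4, and at 0.327 CPM in the total-hippocampus library. Aqp1, which encodes the water channel aquaporin 1 of the apical membrane, was thus near 1 CPM in most libraries, and ventral control 4 was 28.2-fold above the next one. Folr1 was at 1.77, 3.06 and 0.529 CPM in dorsal control 1 to 3, at 0.578, 2.87, 2.66 and 0.809 CPM in dorsal knockdown 1 to 4, at 0.602, 0.285, 2.76 and 86.8 CPM in ventral control 1 to 4, at 0, 1.22 and 0.282 CPM in ventral knockdown 2 to 4, and at 0.546 CPM in the total-hippocampus library. Folr1, the folate receptor that carries folate across the plexus into cerebrospinal fluid, stood 28.4-fold above the next library in ventral control 4. It had 0 reads in ventral knockdown 2, which allows a level of up to 0.389 CPM, and its annotated span overlaps Anapc15 on the opposite strand.

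Kcnj13 was at 1.77, 5.37 and 2.42 CPM in dorsal control 1 to 3, at 0.463, 1.72, 1.44 and 1.08 CPM in dorsal knockdown 1 to 4, at 1, 0.571, 8.18 and 170 CPM in ventral control 1 to 4, at 0.389, 0.111 and 6.68 CPM in ventral knockdown 2 to 4, and at 0.655 CPM in the total-hippocampus library. Kcnj13, an inwardly rectifying potassium channel, was highest in ventral control 4 by 20.8-fold, and ventral control 3, ventral knockdown 4 and dorsal control 2 followed. The gene lies inside Gigyf2 on the opposite strand, and with no strand setting of the counting known here, reads from the pair cannot be told apart. Clic6 was at 2.48, 15.7 and 1.06 CPM in dorsal control 1 to 3, at 2.89, 2.3, 5.09 and 7.15 CPM in dorsal knockdown 1 to 4, at 0.803, 5.71, 15.7 and 208 CPM in ventral control 1 to 4, at 0.519, 2.33 and 0.94 CPM in ventral knockdown 2 to 4, and at 3.27 CPM in the total-hippocampus library. For Clic6, an intracellular chloride channel family member, ventral control 4 was 13.2-fold above ventral control 3, and ventral control 3 and dorsal control 2 were above every remaining library.

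Secreted and surface signalling genes came next. Enpp2 was at 147, 309 and 96.1 CPM in dorsal control 1 to 3, at 97.8, 173, 175 and 175 CPM in dorsal knockdown 1 to 4, at 127, 167, 189 and 4308 CPM in ventral control 1 to 4, at 161, 144 and 72.3 CPM in ventral knockdown 2 to 4, and at 167 CPM in the total-hippocampus library. Enpp2 encodes autotaxin, which makes lysophosphatidic acid and is also made by oligodendrocytes, and outside ventral control 4 its values spanned a narrow range with dorsal control 2 on top. Kl was at 23.8, 22.4 and 12.2 CPM in dorsal control 1 to 3, at 26.7, 11.4, 24.5 and 9.98 CPM in dorsal knockdown 1 to 4, at 17.1, 16, 26.1 and 353 CPM in ventral control 1 to 4, at 12.7, 27.7 and 13.3 CPM in ventral knockdown 2 to 4, and at 15.3 CPM in the total-hippocampus library. Kl encodes klotho, the co-receptor for FGF23, and apart from ventral control 4 its libraries lay between 9.98 and 27.7 CPM with all groups overlapping.

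Prlr was at 2.13, 6.95 and 5.14 CPM in dorsal control 1 to 3, at 13.3, 19.3, 23.9 and 8.23 CPM in dorsal knockdown 1 to 4, at 9.43, 19.4, 11.2 and 179 CPM in ventral control 1 to 4, at 32.8, 2.78 and 19.9 CPM in ventral knockdown 2 to 4, and at 3.71 CPM in the total-hippocampus library. The prolactin receptor gene Prlr had the smallest margin in ventral control 4, 5.44-fold over ventral knockdown 2, and its 3 dorsal controls were below every dorsal knockdown and every ventral control library. The library labelled ventral knockdown 3 was, with dorsal control 1, among the lowest for it. Prlr overlaps Gm21973 on the same strand, so its reads may be split between the entries.

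Sostdc1 was at 2.13, 3.15 and 2.49 CPM in dorsal control 1 to 3, at 1.85, 4.59, 2.21 and 1.48 CPM in dorsal knockdown 1 to 4, at 5.82, 3.43, 3.07 and 68.1 CPM in ventral control 1 to 4, at 1.17, 7.89 and 0.094 CPM in ventral knockdown 2 to 4, and at 1.42 CPM in the total-hippocampus library. Sostdc1 encodes a secreted inhibitor of BMP and Wnt signalling, and after ventral control 4 its highest libraries were the one labelled ventral knockdown 3 and ventral control 1. Otx2 was at 0.355, 4.54 and 0.755 CPM in dorsal control 1 to 3, at 0.694, 1.72, 0.886 and 1.48 CPM in dorsal knockdown 1 to 4, at 0.602, 2.57, 6.03 and 49.3 CPM in ventral control 1 to 4, at 0.259, 0.667 and 0.188 CPM in ventral knockdown 2 to 4, and at 0.655 CPM in the total-hippocampus library. The homeobox gene Otx2, needed to form and keep the plexus, was 8.18-fold above the next library in ventral control 4, and all 3 ventral knockdown libraries were below every dorsal knockdown library. The closest of these, ventral knockdown 3 and dorsal knockdown 1, had 6 reads each. Otx2 also shares its span with Gm49154 and with Otx2os1, which runs on the opposite strand.

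**Figure D1:**
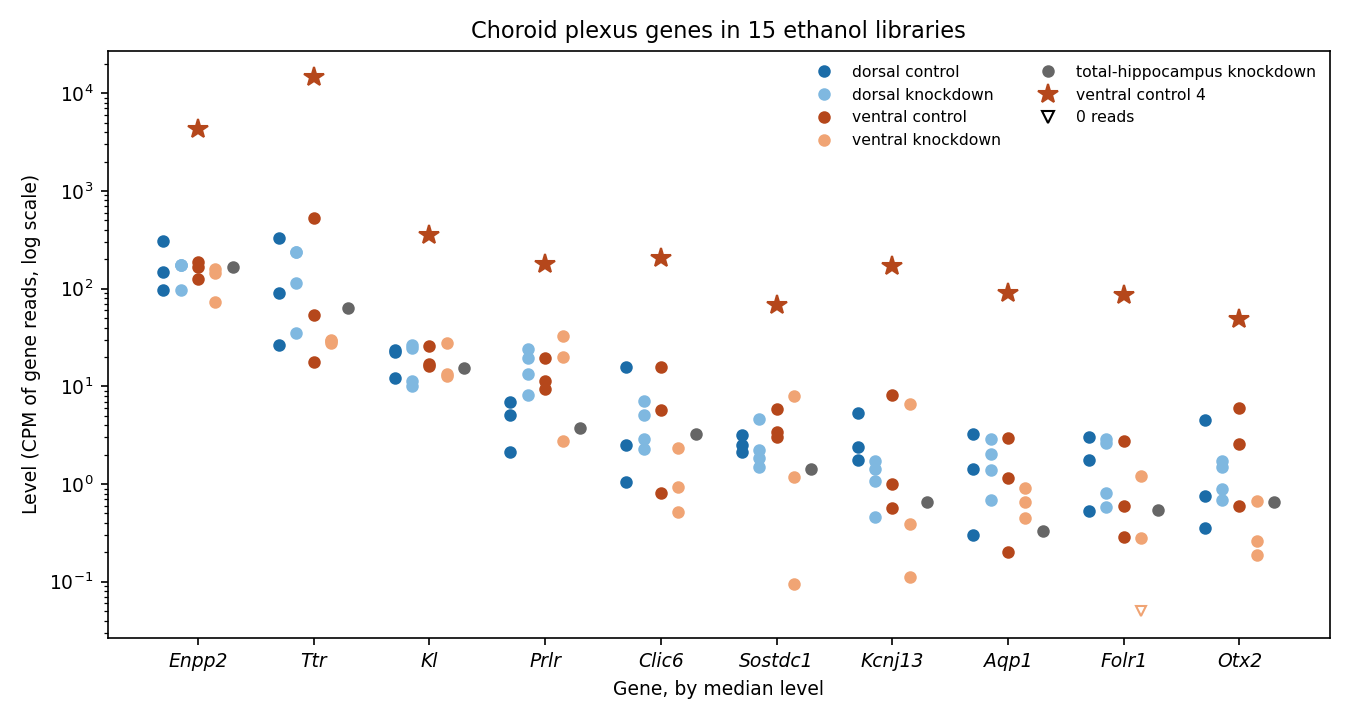
Level of each gene (CPM of gene reads, log scale) in the 15 deep ethanol libraries, coloured by group, with a star for ventral control 4 and an open triangle for 0 reads. The star is the highest point for all 10 genes, with Ttr at 14544 CPM and Enpp2 at 4308 CPM.

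Ventral control 4 was the highest of 15 libraries for 10 of 10 listed genes, while it was the highest for 1428 of 14578 tested genes, or 9.8%. It was at least 4-fold above the next library for 10 of 10, against 78 of all tested genes, or 0.535%. The list was chosen with earlier results of these data known, so these shares describe ventral control 4 and are no test. Its margin over the median of the other 14 libraries ran from 17.3-fold for Prlr and 21.4-fold for Kl, through 26.3-fold for Enpp2 and 28.9-fold for Sostdc1, to 135-fold for Kcnj13 and 247-fold for Ttr. Together the 10 genes took 2.01% of the gene reads of ventral control 4 and 0.0142% to 0.0801% of those of the other 14 libraries. The genes with the smaller margins, Prlr, Kl and Enpp2, were, with Ttr, those with the higher levels elsewhere.

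Per kilobase of exon, the order of the genes in ventral control 4 was led by Ttr at 12263 CPM per kb, followed by Enpp2 at 745 CPM per kb and Kcnj13 at 134 CPM per kb. Clic6 was at 53.1 CPM per kb, and Sostdc1, Kl, Folr1 and Aqp1 lay close together at 38.2, 37.8, 37.8 and 34.8 CPM per kb. Otx2 and Prlr were lowest at 11.7 and 11.6 CPM per kb. In the median of the other 14 libraries Ttr was still first at 49.7 CPM per kb with Enpp2 close behind at 28.4 CPM per kb, and Kl, at 1.77 CPM per kb, came next. Ttr and Enpp2 thus led in both orders, and Folr1 and Otx2 were the lowest outside ventral control 4, at 0.307 and 0.172 CPM per kb.

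The remaining libraries also had an order. Ranked by the mean of the 10 genes on a log2 scale centred for each gene, ventral control 4 stood at 5.31, ventral control 3 at 1.08 and dorsal control 2 at 0.92, followed by dorsal knockdown 3 at 0.33 and dorsal knockdown 2 at 0.20. Ventral knockdown 4 and ventral knockdown 2 were last, at -1.27 and -1.30. Ventral control 3 and dorsal control 2 were each among the 3 highest libraries for 6 of 10 genes, whereas ventral knockdown 4 was among the 3 lowest for 6 and ventral knockdown 2 for 5. Both control groups held a library among the top 3 and one in the lower part of the order, and the total-hippocampus library ranked in the lower part at -0.94.

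**Figure D2:**
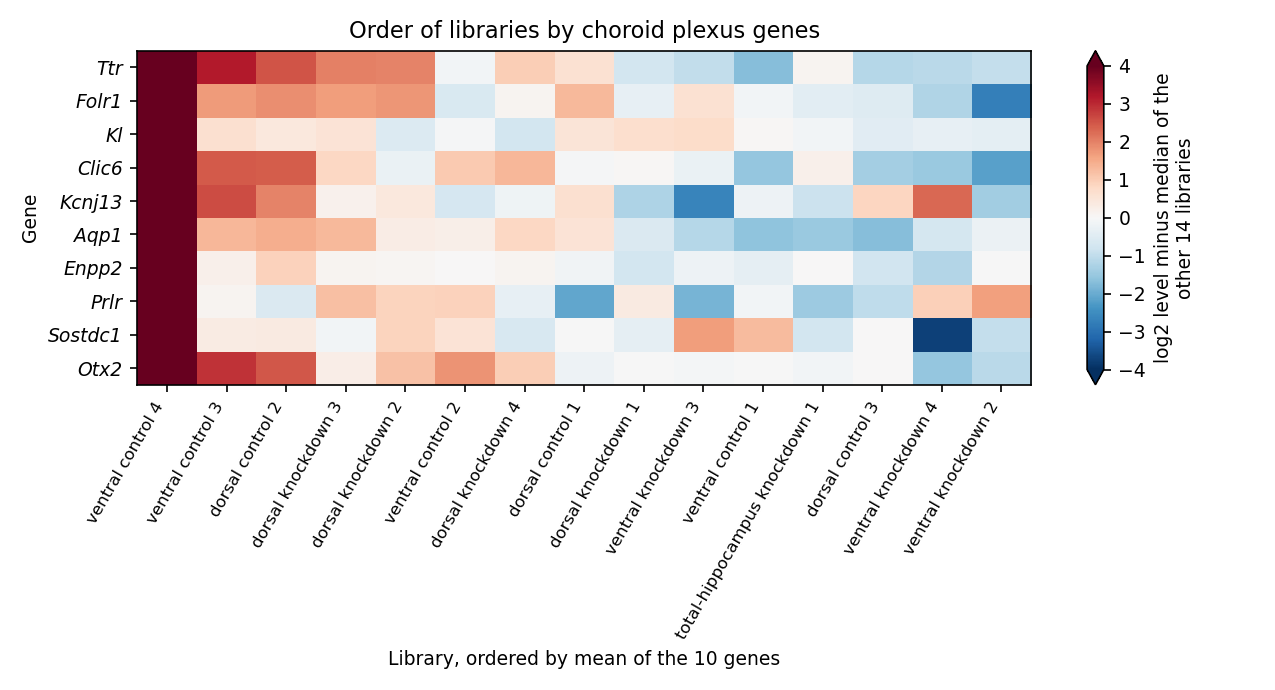
Log2 level of each gene minus its median over the 14 libraries other than ventral control 4, with libraries ordered by the mean of the 10 genes. Ventral control 4 is high in every row, ventral control 3 and dorsal control 2 are next, and Prlr, Kl and Sostdc1 do not follow the order of the other rows.

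With ventral control 4 left out, 5 of the other 9 genes followed Ttr across the remaining 14 libraries. The share of all tested genes that follow Ttr in this way was not determined, so the count has no background beside it. The permutations moved libraries across regions and arms, so differences between groups are part of each relation. On log2 levels Pearson's r with Ttr was 0.861 for Aqp1 (permutation test, p = 0.00023, adjusted p = 0.0021) and Spearman's rho was 0.903 (p = 4e-05, adjusted p = 0.00036). For Clic6 r was 0.816 (permutation test, p = 0.00055, adjusted p = 0.0025) and rho 0.793 (p = 0.0013, adjusted p = 0.004). These were the highest values of r, and all p-values are two-sided with Benjamini-Hochberg adjustment over 9 relations.

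For Folr1 r was 0.774 (permutation test, p = 0.0011, adjusted p = 0.0031) and rho 0.732 (p = 0.0036, adjusted p = 0.0082). For Otx2 r was 0.759 (permutation test, p = 0.0014, adjusted p = 0.0031) and rho 0.644 (p = 0.015, adjusted p = 0.027), and for Enpp2 r was 0.723 (permutation test, p = 0.0023, adjusted p = 0.0041) and rho 0.895 (p = 0.0001, adjusted p = 0.00045). Kcnj13 missed the threshold, with r = 0.518 (permutation test, p = 0.058, adjusted p = 0.087) and rho = 0.376 (p = 0.18, adjusted p = 0.28).

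Kl, Sostdc1 and Prlr showed no detectable relation, with r of 0.226, 0.176 and 0.0843 (permutation test, p = 0.43, 0.57 and 0.77, adjusted p = 0.55, 0.64 and 0.77) and rho of 0.138, 0.0198 and 0.0374 (p = 0.64, 0.95 and 0.90, adjusted p = 0.82, 0.95 and 0.95). Without the 2 libraries farthest from the median Ttr level, ventral control 3 and dorsal control 2, r over 12 libraries was 0.796 for Aqp1, 0.696 for Folr1, 0.657 for Clic6, 0.627 for Enpp2 and 0.513 for Otx2. It was 0.166 for Kcnj13, 0.147 for Prlr, 0.106 for Sostdc1 and -0.0608 for Kl. All libraries share 1 scaling to gene reads, and the labels name no batch within which the relations could be computed.

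The proportions among the genes were also compared, as reads per 100 Ttr reads, with 95% Clopper-Pearson intervals that cover counting error only. Aqp1 was at 0.629 (0.586 to 0.673) in ventral control 4, at 0.554 (0.371 to 0.797) in ventral control 3 and at 0.972 (0.676 to 1.35) in dorsal control 2. Folr1 was at 0.597 (0.556 to 0.640), 0.516 (0.340 to 0.751) and 0.916 (0.630 to 1.29) in the same libraries. For both genes the interval of ventral control 3 held the value of ventral control 4, while that of dorsal control 2 lay above this value, and overlapped the interval of ventral control 4 for Folr1 only.

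For some other genes the ratio was higher in most libraries with less Ttr. Clic6 was at 1.43 (1.36 to 1.49) in ventral control 4 and 2.94 (2.49 to 3.45) in ventral control 3, and Otx2 at 0.339 (0.309 to 0.372) and 1.13 (0.857 to 1.46). Enpp2 was at 29.6 in ventral control 4, 35.3 in ventral control 3 and 92.8 in dorsal control 2, with a median of 262 over the other 14 libraries and a maximum of 710 in ventral control 1. Kl ran from 2.43 in ventral control 4 to 95.5 in ventral control 1, and Prlr from 1.23 in ventral control 4 to 110 in ventral knockdown 2. Others did not follow: Kcnj13 was at 1.17 in ventral control 4 and lower than that in 6 of the other 14 libraries, down to 0.379, and Clic6 was at 0.978 in dorsal knockdown 2. A gene whose level does not vary with Ttr has such a falling ratio by construction, and Enpp2, Kl, Prlr and Otx2 were lowest in ventral control 4 among all 15 libraries on this measure.

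**Figure D3:**
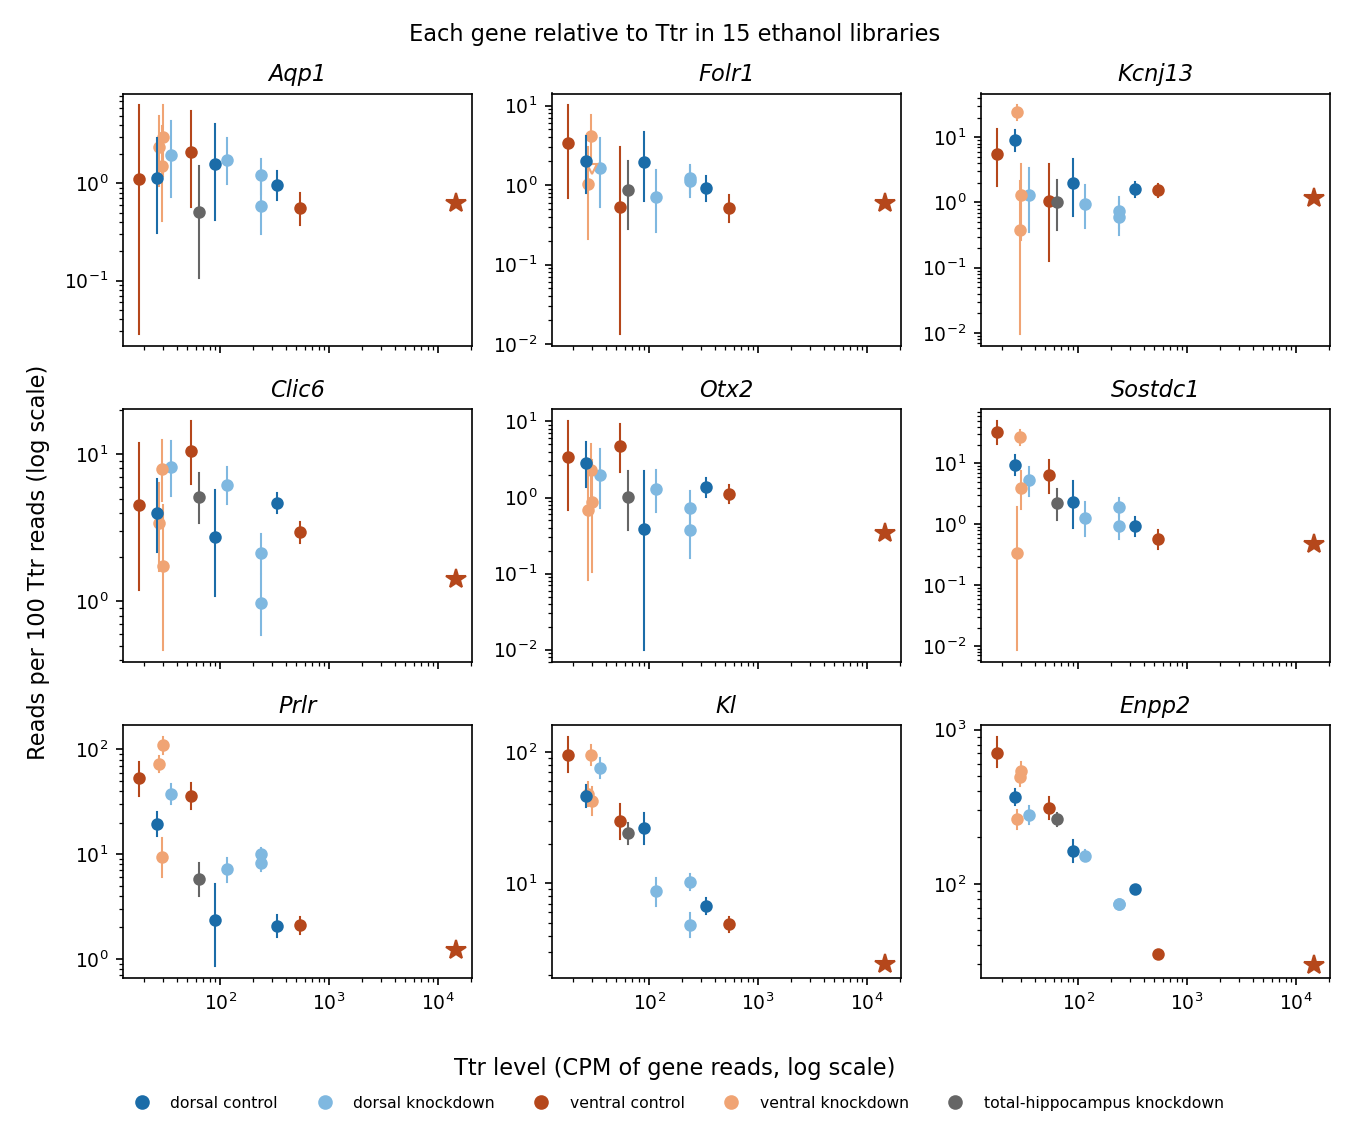
Reads of each gene per 100 Ttr reads against the Ttr level (CPM of gene reads), both on log scales, for the 15 ethanol libraries, coloured by group, with a star for ventral control 4. Aqp1 and Folr1 stay between 0.513 and 4.17 per 100 where they had reads, while Enpp2, Kl and Prlr descend from left to right.

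A wider list of choroid plexus epithelial genes held 32 symbols, of which 31 were in the table and 25 passed the filter on low counts. Ventral control 4 was the highest library for 31 of 31 and at least 4-fold above the next library for 19 of 31. The wider list, too, was chosen with earlier results of these data known, so these counts are no independent support. Of those named by their ratio to the median of the other 14 libraries, the largest ratios were those of Kcne2, a potassium channel subunit, at 206-fold (65.9 CPM in ventral control 4), of Slc16a8, a lactate transporter, at 184-fold (17.0 CPM) and of Tmem72, a membrane protein, at 169-fold (74.2 CPM). Among the smallest were those of Slc29a4, a monoamine transporter, at 3.48-fold (81.4 CPM) and of Car12, a carbonic anhydrase, at 4.05-fold (144 CPM). Of the 78 genes with a margin of at least 4-fold, 10 were the listed genes, 14 were among the 25 tested on the wider list and 3 were on a list of ependymal genes.

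Among 14132 candidate genes whose mean reached 1 CPM, the 8 most like the mean of the listed genes over the 15 libraries, by Pearson's r of log2 CPM, were Ccdc24 (0.953), Kcne2 (0.952), Trpv4 (0.949), Slc4a5 (0.932), F5 (0.930), Drc7 (0.927), Tmem72 (0.922) and Krt18 (0.919). Trpv4 is an osmosensitive cation channel, Slc4a5 a sodium bicarbonate transporter, F5 coagulation factor V, Drc7 a part of motile cilia and Krt18 an epithelial keratin. Over the 14 libraries without ventral control 4 the 5 most like were Kcne2 (0.836), Calml4 (0.836), Drc7 (0.814), Sdf2l1 (0.813) and Krt18 (0.803). Kcne2, Drc7 and Krt18 were thus named in both settings.

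Markers of other cell types were summed in each library beside these genes. The 14 ependymal genes, which mark the ciliated lining of the ventricles, summed to 302 CPM in ventral control 4 and to 14.8 to 88.9 CPM in the other 14 libraries, and 12 of 14 were highest there, with Foxj1 at 69.2 CPM. The 10 oligodendrocyte genes summed to 12454 CPM against 2357 to 7949 CPM, and 10 of 10 were highest in ventral control 4, including Mbp at 6259 CPM. Of the 10 markers of thalamus and habenula 3 were highest there, and the sum of the 10 was 305 CPM against 37.1 to 219 CPM. Ventral control 2 and ventral control 3 followed at 219 and 187 CPM. On the mean of log2 levels centred for each gene, ventral control 2 was above ventral control 4 for this list (1.12 against 0.83). Most of the 305 CPM came from Prkcd (135 CPM) and Zic1 (136 CPM).

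Lists of other tissues did not stand out in ventral control 4. Fibroblast and meningeal genes summed to 194 CPM there and 71.4 to 648 CPM elsewhere, with 0 of 12 highest in it. Endothelial genes summed to 243 CPM against 171 to 353 CPM (1 of 10 highest), hippocampal neuron genes to 775 CPM against 499 to 1259 CPM (0 of 10) and hypothalamic genes to 10.3 CPM against 3.48 to 157 CPM (0 of 10). Of 5 blood genes 4, the globin genes Hba-a1, Hba-a2, Hbb-bs and Hbb-bt, were at 0 in all 15 libraries. The remaining one, Alas2, was at 3.86 CPM in ventral control 4 and at 0.694 to 4.21 CPM elsewhere. With no globin read in any library, this list does not show whether blood was present. The part of ependymal cells, oligodendrocytes and neighbouring brain regions in the levels of the listed genes was not tested.

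**Figure D4:**
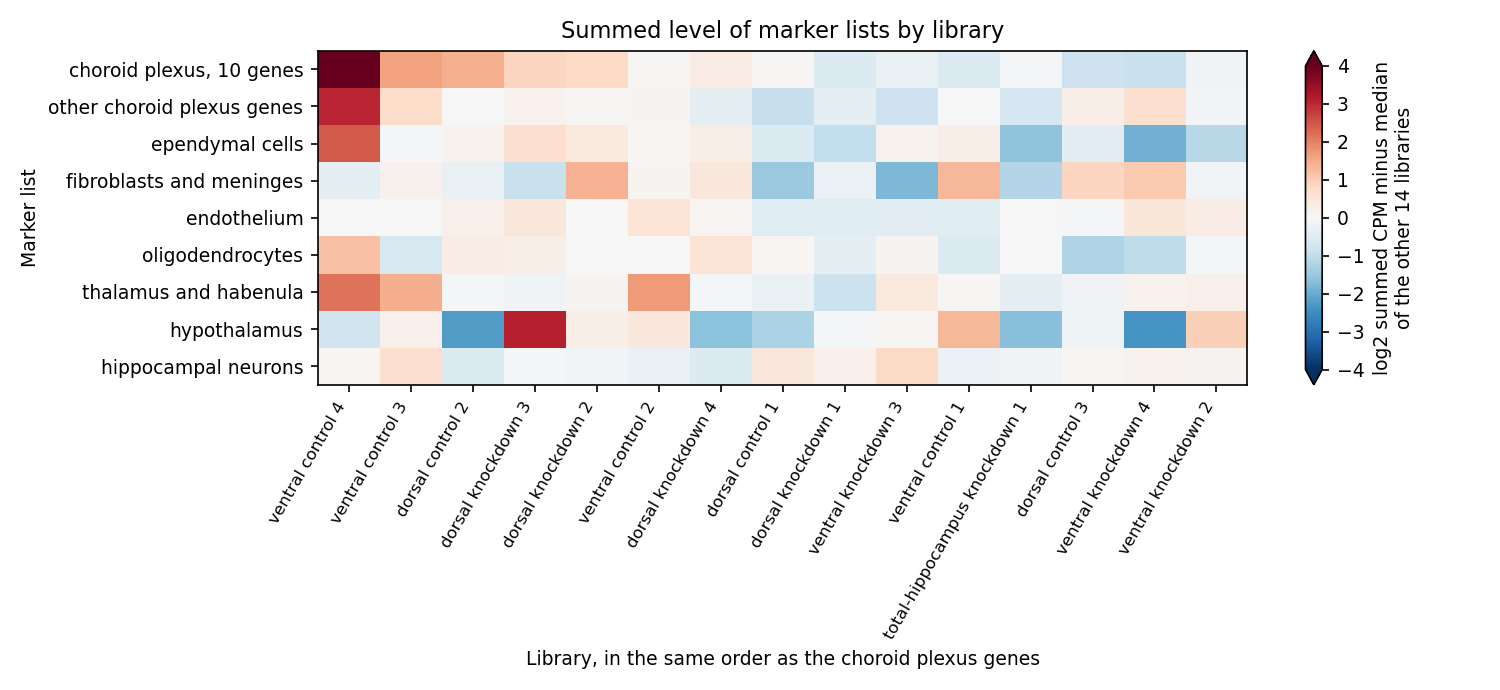
Log2 of the summed CPM of each marker list minus its median over the 14 libraries other than ventral control 4, with libraries in the order set by the choroid plexus genes. Ventral control 4 is high for both plexus lists, ependymal cells and oligodendrocytes. It is also highest for thalamus and habenula, at 305 CPM, with ventral control 2 and ventral control 3 next at 219 and 187 CPM. It lies within the range of the others for fibroblasts, endothelium, hypothalamus and hippocampal neurons.

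Knockdown was compared with control in the ventral hippocampus. All 10 listed genes had negative log2 fold changes, from -7.03 for Ttr to -1.55 for Prlr, with a median of -4.62 beside -0.01 over all 14578 genes. None was called: 0 of 10 had an adjusted p under 0.05 by the quasi-likelihood test of edgeR, and neither did any other gene (0%). At an unadjusted p under 0.05 there were 9 of 10 lower, beside 2.46% of all genes lower and 1.61% higher on that rule, 593 genes in all. Ttr had a log2 fold change of -7.03 ± 2.01 (SE, edgeR adjusted p = 0.718) and Otx2 of -5.29 ± 1.35 (edgeR adjusted p = 0.634). For 0 of 10 the groups did not overlap, beside 1.96% of all genes lower and 0.665% higher on that rule.

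The size of these values depended on ventral control 4. Without it the median of the 10 genes was -0.81, with 9 of 10 lower, and 0 were called by edgeR. The log2 fold change was then -3.08 for Otx2, -2.86 for Ttr, -2.60 for Clic6, -1.43 for Folr1 and -1.20 for Aqp1, and it was between -0.42 and 0.58 for Kcnj13, Sostdc1, Enpp2, Kl and Prlr. DESeq2 on the 14 libraries of the main fit, ventral control 4 included, called 35 genes. Among them were Clic6 (DESeq2 adjusted p = 0.0232) and Otx2 (DESeq2 adjusted p = 0.00412), and 7 of the 10 had no adjusted p. DESeq2 was not run without ventral control 4, so the dependence of these calls on that library was not tested. Without the library labelled ventral knockdown 3 the median was -4.98. The wider plexus list had 25 of 25 tested genes lower with a median of -1.81 and 0 called, and 15 of 23 lower with a median of -0.53 without ventral control 4. Beside this comparison the ependymal sum ran from 53.8 to 302 CPM in ventral controls and from 14.8 to 61.5 CPM in ventral knockdown libraries. The oligodendrocyte sum ran from 3503 to 12454 CPM and from 2738 to 5884 CPM, and the thalamus and habenula sum from 70.3 to 305 CPM and from 74.6 to 89.4 CPM. Their part in the result was not tested.

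In the dorsal hippocampus no listed gene differed past the test between knockdown and control. Of the 10, 9 had negative and 1 a positive log2 fold change, with a median of -0.15 beside 0.03 over all genes, and 0 were called by edgeR, as for all genes (0%). At an unadjusted p under 0.05 there were 0 of 10, beside 1.19% of all genes lower and 3.39% higher, 667 genes in all. DESeq2 called 11 genes, none of them listed, though a gene to which it gave no adjusted p could not be called. Prlr was higher in 4 of 4 knockdown libraries than in any control, at 16.2 ± 6.86 CPM (SD, n = 4) against 4.74 ± 2.44 CPM (n = 3), with a log2 fold change of 1.64 ± 1.02 (SE, edgeR adjusted p = 0.999). Kcnj13 was lower in all 4 knockdown libraries than in the controls, at 1.18 ± 0.544 CPM against 3.19 ± 1.92 CPM, with a log2 fold change of -1.58 ± 1.58 (edgeR adjusted p = 0.999). Its nearest libraries, dorsal knockdown 2 at 1.72 CPM (95% interval 0.964 to 2.84) and dorsal control 1 at 1.77 CPM (0.576 to 4.14), lay within counting error. For Prlr the intervals of dorsal knockdown 4 (6.29 to 10.6 CPM) and dorsal control 2 (5.47 to 8.71 CPM) overlapped too. Groups that did not overlap were found for 2.41% of all genes in the higher and 1.93% in the lower direction. Without dorsal control 2, the library with the highest Ttr level in that group, the median of the 10 genes was 0.82.

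The control arm was then compared between regions, sharing the ventral control libraries with the ventral knockdown comparison. All 10 genes had negative log2 fold changes from ventral to dorsal, from -4.55 for Ttr to -2.29 for Kl, with a median of -3.21 beside -0.06 over all genes. By edgeR 0 were called (0% of all genes), each with an adjusted p of 0.731, and 10 of 10 had an unadjusted p under 0.05, beside 2.99% of all genes lower and 2.59% higher on that rule, 813 genes in all. DESeq2 called 13 genes and none of the 10, though a gene to which it gave no adjusted p could not be called. Without ventral control 4 the median was -0.10, and Prlr then had the lowest value, -1.28. Prlr was the listed gene whose groups did not overlap, at 4.74 ± 2.44 CPM in dorsal control and 54.7 ± 82.7 CPM in ventral control (13.4 ± 5.31 CPM without ventral control 4), beside 4.49% of all genes lower and 2.33% higher on that rule. Its nearest libraries, dorsal control 2 (5.47 to 8.71 CPM) and ventral control 1 (6.93 to 12.5 CPM), had overlapping 95% intervals. The wider list had 25 of 25 lower with a median of -1.83, and 15 of 23 lower with a median of -0.18 without ventral control 4. Markers of thalamus and habenula summed to 56.0 to 65.0 CPM in dorsal controls and 70.3 to 305 CPM in ventral controls, with no overlap. Most of the 305 CPM came from Prkcd (135 CPM) and Zic1 (136 CPM). From ventral to dorsal the log2 fold changes of Zic1, Prkcd, Slitrk6, Nhlh2 and Tac1 were negative, while those of Tcf7l2, Lef1 and Rgs16 were positive (0.29, 0.27 and 0.53). Ependymal markers summed to 37.6 to 60.6 CPM in dorsal and 53.8 to 302 CPM in ventral controls. The part of these tissues in the result was not tested.

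**Figure D5:**
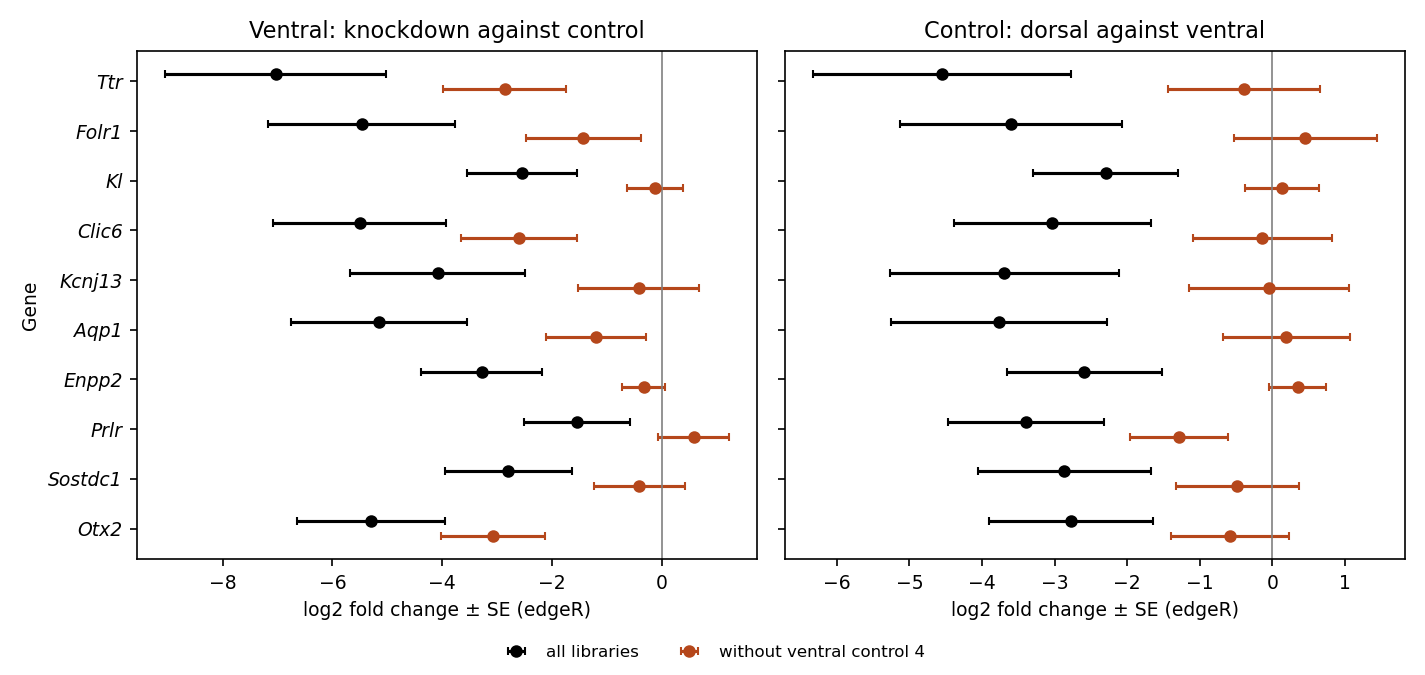
Log2 fold change ± SE by edgeR for each gene, ventral knockdown against ventral control on the left and dorsal control against ventral control on the right, with all libraries (black) and without ventral control 4 (orange). The black points all lie below 0, with medians of -4.62 and -3.21, and the orange ones have medians of -0.81 and -0.10.

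Within the knockdown arm, where ventral control 4 plays no part other than in the shared estimate of spread, dorsal and ventral libraries were compared next. Of the 10 genes 7 had positive and 3 negative log2 fold changes from ventral to dorsal, from -1.19 for Kcnj13 to 2.36 for Ttr, with a median of 0.84 beside -0.01 over all genes. By edgeR 0 were called (0% of all genes), each with an adjusted p of 0.9996, and 0 had an unadjusted p under 0.05, beside 0.892% of all genes lower and 1.28% higher, 317 genes in all. DESeq2 called 0 genes. Ttr, at 156 ± 98.8 CPM in dorsal (SD, n = 4) and 29.0 ± 1.20 CPM in ventral knockdown (n = 3), had groups that did not overlap, as did Otx2, at 1.20 ± 0.486 CPM and 0.372 ± 0.258 CPM. Such groups were found for 0.83% of all genes in this direction and for 0.576% in the other. For Otx2 the nearest libraries, ventral knockdown 3 and dorsal knockdown 1, had 6 reads each, with 95% intervals of 0.245 to 1.45 and 0.255 to 1.51 CPM. Its gap therefore lay within counting error. For Ttr the nearest, ventral knockdown 2 (26.2 to 34.1 CPM) and dorsal knockdown 1 (31.3 to 39.4 CPM), had overlapping intervals too.

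The knockdown effect in dorsal hippocampus minus that in ventral hippocampus was positive for all 10 genes, from 2.41 for Kl to 6.91 for Ttr on the log2 scale, with a median of 3.80 beside 0.05 over all genes. By edgeR 0 were called (0% of all genes), each with an adjusted p of 0.998, and 6 of 10 had an unadjusted p under 0.05, beside 2.79% of all genes higher and 1.82% lower on that rule, 672 genes in all. DESeq2 called 9 genes and none of the 10, though a gene to which it gave no adjusted p could not be called. Without ventral control 4 the median was 1.12, and the values of Kl, Enpp2 and Kcnj13 were then -0.0031, -0.024 and -1.15. The other 7 genes kept positive values in that setting, from 0.27 for Sostdc1 to 1.94 for Clic6, 2.23 for Otx2 and 2.75 for Ttr.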

How the data were processed

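RNA of mouse hippocampus was sequenced in 21 libraries with a directional kit, per the labels' protocols. The authors deposited unnormalised counts for 24498 genes, with 5 summary lines that were left out of library sizes. The submitters' processing notes name the mm10 genome, STAR (2.5.2a) and HTSeq (0.6.1p1). All 21 sample columns were used. Groups and replicate numbers came from the sample titles. No pair of libraries of a group agreed within sampling noise (lowest chi-square per degree of freedom 17.1).

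Genes kept by filterByExpr (minimum count 10) were tested in R 4.3.3 by the quasi-likelihood test of edgeR (4.0.16) on counts, with TMM scaling and a robust fit of 4 group means over 14 ethanol libraries with over 1000000 gene reads. The 14578 tested genes gave 5 comparisons, with Benjamini-Hochberg adjustment over all of them and a threshold of 0.05. Each standard error is the fold change over the root of its F value. The total-hippocampus library, the 2 shallow ethanol libraries and the 4 untreated libraries entered no test. Levels are CPM of gene reads, intervals are Clopper-Pearson at 95%, and the limit of a count of 0 is 3 counts, all for counting error only, since the libraries carry no molecular identifiers.

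Likeness and correlations used log2 CPM with a prior count of 1, with 100000 permutations for the latter. Positions and overlaps are from GENCODE M21 on the same build. Alternatives were DESeq2 1.42.0, RLE scaling, no low-count filter, all 20 dorsal and ventral libraries, only the groups compared, the replicate number as a block, and leaving out each library in turn. The fit of the ventral knockdown comparison was tested on simulated data. No library with an excess like that of ventral control 4 was built into them, so that setting was not tested. The members and all gene lists were chosen with earlier results of these data known. Named genes were the 10 members, the 3 highest and 3 lowest of the wider plexus list by ratio to the median library, the genes most like the members (8 over 15 libraries, 5 without ventral control 4), Acss2 and defining markers. One gene that this rule names is not reported here.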

Additional observations from a re-analysis of the deposited data

Results flagged for a closer look

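In the ventral control group of 4 libraries, ventral control 4 lay far from the others for all 10 genes. The gap to its nearest neighbour as a share of the group's range, on the CPM scale, was 0.964 for Ttr, 0.971 for Folr1, 0.970 for Kl, 0.928 for Clic6, 0.955 for Kcnj13, 0.970 for Aqp1, 0.985 for Enpp2, 0.941 for Prlr, 0.958 for Sostdc1 and 0.889 for Otx2. Each exceeds Dixon's critical value at 95% for groups of 4, as chance does in about 1 in 20 groups of normally distributed values. The 20 groups examined were the 10 genes in the ventral control and the dorsal knockdown libraries. The 10 values above thus come from 1 library and are not independent. On log2 CPM, a scale added after seeing the data, ventral control 4 exceeded the critical value for 2 of 10 genes, Kl at 0.842 and Enpp2 at 0.887, and the share was 0.493 for Ttr. In the dorsal knockdown group, dorsal knockdown 1 was low for Enpp2, with a share of 0.967 and a level of 97.8 CPM beside 173 to 175 CPM in the other 3 libraries.

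The untreated libraries, which entered no comparison, held reads of some members. Untreated dorsal control 1 had 67 reads of Ttr and 8 of Enpp2, and untreated dorsal control 2 had 5 reads of Kcnj13 and 5 of Enpp2, each above the 3 counts that a count of 0 allows. In these libraries 0.991% to 1.43% of uniquely aligned reads fell in genes.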

How the results depend on the processing

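Over all comparisons, alternatives and listed genes, 674 values kept their direction and call, 33 reversed and 2 passed the threshold under DESeq2. A gene without an adjusted p from DESeq2 counted as not called, so for such genes the 674 values show a kept direction only. DESeq2, run only with ventral control 4 included, called 2 listed genes in the ventral knockdown comparison, where edgeR called 0. Each other alternative called 0 in every comparison. Deviations of same-numbered libraries from their group means correlated at -0.237 to 0.368. Differently numbered libraries were not compared in this way, so whether the replicate numbers pair the libraries was not settled. With the replicate block the median log2 fold change was -3.98 in the ventral, -0.64 in the dorsal and -0.98 in the control region comparison, and 0 listed genes were called. In the knockdown region comparison the median was 1.66 with the replicate block, with Kcnj13 at 1.19 and Prlr at 0.74, and 0.33 with only the groups compared (9 genes tested). Leaving out each library in turn, the median ran from -5.10 to -0.81 (ventral), -0.68 to 0.82 (dorsal), -4.42 to -0.10 (control, between regions), 0.63 to 1.58 (knockdown, between regions) and 1.12 to 4.90 (difference of knockdown effects). Single genes that changed sign ran from -2.13 to 0.58 for Prlr in the ventral comparison and, in the dorsal one, from -0.63 to 1.12 for Ttr, -0.72 to 0.78 for Folr1, -0.53 to 0.16 for Kl, -1.24 to 1.44 for Clic6, -0.66 to 1.40 for Aqp1, -0.71 to 0.17 for Enpp2, -0.46 to 0.027 for Sostdc1 and -1.34 to 0.86 for Otx2. Between regions in controls they ran from -4.53 to 0.45 for Folr1, -2.67 to 0.13 for Kl, -5.19 to 0.19 for Aqp1 and -3.12 to 0.35 for Enpp2, and in the knockdown arm from -0.28 to 0.51 for Kl, -1.76 to 2.26 for Kcnj13, -0.73 to 0.39 for Prlr and -0.79 to 2.06 for Sostdc1. For the difference of effects they ran from -0.0031 to 2.81 for Kl, -1.15 to 5.95 for Kcnj13 and -0.024 to 3.45 for Enpp2. The causes were not tested, other than that leaving out a library removes its values. Over all genes edgeR called 0 in each comparison, and 8 (ventral) and 6 (control, between regions) without ventral control 1, with at most 2 under any other edgeR alternative. Folr1, Aqp1, Otx2 and Kcnj13 had 3 or fewer reads in at least 2 libraries each, which limits their fold changes.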

Other observations

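The 2 ethanol libraries with few reads entered no comparison. Ventral knockdown 1, with 8744 gene reads, held 2 reads of Ttr and 3 of Enpp2. Dorsal knockdown 5, with 5021 gene reads, held 1 read of Kl and 0 of Ttr.

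Among the wider plexus genes, some had their next highest level after ventral control 4 in a library that was low for the listed genes, and they were chosen after their values were seen. Igf2, a growth factor made by plexus and meninges, was at 458 CPM in ventral control 4 and 238 CPM in ventral knockdown 4. Slc13a4, a sulfate transporter of the same tissues, was at 78.1 and 48.9 CPM. Ventral knockdown 4 was among the 3 lowest libraries for 6 of the 10 listed genes, and Col1a1, a fibroblast collagen, was at 42.8 CPM in it and at 13.5 CPM in ventral control 4. Htr2c, a serotonin receptor of plexus epithelium and of neurons, was at 139 CPM in ventral control 4 and 120 CPM in ventral control 1.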
